A study of Arabidopsis thaliana with 10 samples.

Results

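Heat shock proteins (HSPs) are chaperones that keep other proteins from aggregating and refold or disaggregate those that have lost their shape. Heat shock factors (HSFs) are the transcription factors that bind heat shock elements in the promoters of chaperone genes. In plants the HSFA1 factors start the response to heat, HSFA2 prolongs it, HSFA9 works in maturing seeds, and class B factors mostly lack the activation domain of class A. The genes described here are the rows of the deposited tables whose name starts with HSP or HSF, or with the same letters after AT, leaving out names held by more than 1 row. They number 42 of 33028 rows. There are 8 small HSPs, 6 HSP70s, 5 HSP90s, 2 HSP100s, 3 HSP60s and 17 HSFs. The last, HSPRO2, is no chaperone: it is named after a nematode resistance gene of sugar beet. No name was lost to a shared row. The filter on low counts passed 40 of the 42 and left out HSP21 of the chloroplast and ATHSP22.0 of the endoplasmic reticulum.

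RNA came from the fifth and sixth rosette leaves of Arabidopsis thaliana plants aged 4 weeks, kept at 22 °C under days of 16 h light and 8 h dark. The 10 libraries have 5 labels with 2 libraries each. RanG22V D3 is the line that overexpresses RanG22V, described as the GTP form of the small nuclear transport GTPase Ran, after 3 days in darkness, and RanG22V D0 is the same line on day 0. RanT27N D3 and RanT27N D0 are the same times of the line that overexpresses RanT27N, described as the GDP form. Col D0 is the untransformed wild type Col-0 on day 0, and it has no dark counterpart. The labels name no promoter for the transgenes, no number of lines and no number of plants per library, so a p-value reflects how far these particular libraries scatter, and that scatter may be technical alone.

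The name in the header of a count file disagreed with the sample's label for 8 of the 10 libraries. Both libraries labelled RanG22V D3 are headed RanT27N D3, and both labelled RanG22V D0 are headed RanG22V D3. Those labelled RanT27N D3 are headed RanT27N D0, and those labelled RanT27N D0 are headed RanG22V D0. The headers also name every replicate 1 as Set1 and every replicate 2 as Set2, and what a set is, is not given. Read by the headers, RanG22V D0 vs RanT27N D0 is darkness in the RanG22V line, and RanG22V D3 vs RanT27N D3 is darkness in the RanT27N line. RanG22V D3 vs RanG22V D0 then sets RanT27N against RanG22V after darkness, and RanT27N D3 vs RanT27N D0 does so before it. Groups below keep their labels. The summed CPM (counts scaled to a common library size) of 5 green leaf genes were 1698 and 1942 in the libraries labelled RanG22V D3, 492.8 and 222.7 under RanG22V D0, 6752 and 5363 in RanT27N D3, 6962 and 8437 in RanT27N D0, and 4834 and 6627 in Col D0. The pair labelled RanG22V D0, undarkened by its label, was thus the lowest, and the pair labelled RanT27N D3, darkened by its label, lay in the range of the day 0 pairs labelled RanT27N and Col. The marker LHCB2.1, a light-harvesting protein, also split the replicates of 3 pairs, with 26.1 and 1094 CPM in RanT27N D3, 13.3 and 1166 CPM in RanT27N D0 and 10.7 and 739 CPM in Col D0. Replicate 1 was the low one each time, and the part of this split in the chaperone levels below was not tested. LHCB2.1 had 908 and 1331 CPM in the pair labelled RanG22V D3 and 152 and 79.0 CPM in RanG22V D0. Its highest level of the 10 libraries was thus in replicate 2 labelled RanG22V D3, unlike that of the sum. Markers of seed summed to at most 0.462 CPM, with 5 of 9 at 0 in every library. Markers of root summed to at most 9.98 CPM, with 3 of 5 at 0 throughout, those of pollen to at most 2.42 CPM, and those of flower to at most 4.66 CPM. Libraries held 14187505 to 24496672 counts. In leaf tissue, fewer cells of a type and less RNA per cell cannot be told apart.

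Heat shock elements are runs of GAA and TTC units that alternate with 2 free bases between them. Runs of 3 such units, read as GAANNTTCNNGAA or TTCNNGAANNTTC, were searched in the 250 bases before the annotated start of every protein-coding gene in the RefSeq annotation of TAIR10.1. These letters are each their own or each other's reverse complement, so both strands are covered, and the 3-unit match always holds overlapping 2-unit matches. A 3-unit match stood in 3 of the 42 promoters of HSP and HSF genes (7.14%) and in 106 of 27443 promoters of all protein-coding genes (0.386%). The shorter match, GAANNTTC or TTCNNGAA, stood in 8 of 42 (19%) and in 4432 of 27443 (16.1%). The windows rest on the annotated start, which was not checked and may lie inside a transcript or away from its true start. A gene without a match in its window may therefore still have a heat shock element elsewhere. The promoters with 3 units are shown because they carry the element through which this family is known to act on itself, with every base of a 3-unit match in capitals. A further 2-unit match in HSFA2, at 33 to 26 bases before the start, is left in lower case. The submitters' notes name TAIR10 as their build, the deposited rows carry no coordinates, and the positions are those of TAIR10.1.
HSP17.4, chr3:16984868-16985117, minus strand: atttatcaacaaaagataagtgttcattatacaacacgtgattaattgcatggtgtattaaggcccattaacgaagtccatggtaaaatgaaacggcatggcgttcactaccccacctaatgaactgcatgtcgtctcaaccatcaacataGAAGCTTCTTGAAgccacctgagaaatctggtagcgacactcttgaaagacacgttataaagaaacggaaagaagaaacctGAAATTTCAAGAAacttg
HSFA2, chr2:11135374-11135623, plus strand: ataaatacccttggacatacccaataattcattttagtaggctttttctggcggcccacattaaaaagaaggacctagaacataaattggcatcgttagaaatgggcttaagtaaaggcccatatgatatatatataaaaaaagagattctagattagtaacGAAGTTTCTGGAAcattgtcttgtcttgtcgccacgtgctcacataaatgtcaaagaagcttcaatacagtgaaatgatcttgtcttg
HSFA7A, chr3:19264891-19265140, plus strand: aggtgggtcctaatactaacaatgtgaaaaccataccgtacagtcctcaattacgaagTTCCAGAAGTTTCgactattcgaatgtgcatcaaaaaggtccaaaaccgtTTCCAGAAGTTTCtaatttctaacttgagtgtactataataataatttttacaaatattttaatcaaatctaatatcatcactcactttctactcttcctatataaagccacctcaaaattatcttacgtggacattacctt

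HSP17.4 encodes a cytosolic small HSP, HSFA2 the heat-induced activator and HSFA7A another class A factor. The last base of the 3-unit match nearest the start lay 6 bases before it in HSP17.4, 76 in HSFA2 and 130 in HSFA7A. A match is a run of letters, not a bound site, and no protein binding was measured. These 3 genes did not share a pattern over the libraries, as their values below show.

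None of the 22 tested HSP genes was called in any of the 7 comparisons, where 0.00466% to 12.1% of all genes were called in a given direction, and every called member was an HSF. Whether HSP and HSF genes differ in this was not tested, and DESeq2 called HSP60, Hsp70-2 and HSP1 in some comparisons. Without the filter, edgeR called these and HSP17.4, HSP17.6A, HSP17.6II, HSP70, HSP90.1, Hsp81.4 and HSP101 in some comparison. With only the libraries compared, it called HSP60, HSP60-2, Hsp89.1, HSP70 and Hsp70-2. That only HSFs were called thus depends on the setting. Many chaperones varied between the 2 libraries of a pair, most of all in the pairs labelled RanT27N D0 and Col D0. Replicate 2 labelled RanT27N D0 held the highest level of 8 of the 22 tested HSP genes among the 10 libraries, replicate 1 labelled RanG22V D3 that of 5 and replicate 1 labelled Col D0 that of 3. Of all genes tested, 7.99% were highest in replicate 2 labelled RanT27N D0, 10.8% in replicate 1 labelled RanG22V D3 and 8.92% in replicate 1 labelled Col D0. Which plants, trays or times of harvest these libraries came from is not given, and a part of such differences in the chaperone levels was not tested.

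**Figure D1:**
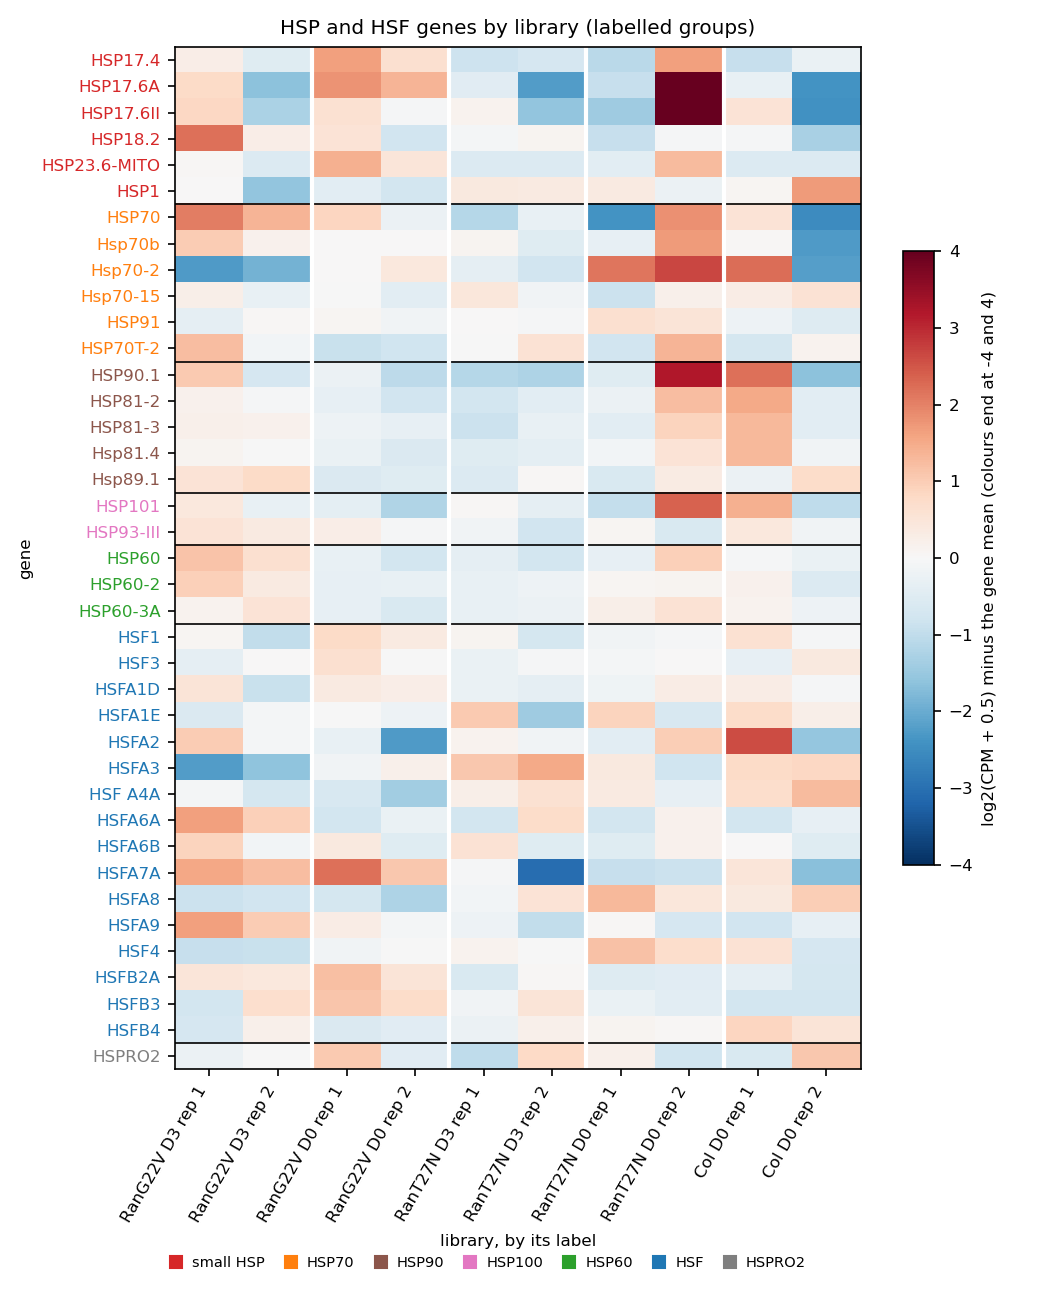
Level of 39 tested genes (rows, grouped and coloured by family) in each of the 10 libraries (columns, by label), as log2(CPM + 0.5) minus the mean of that gene, with red above and blue below the mean. HSP17.6A, HSP17.6II, Hsp70b, HSP90.1 and HSP101 are reddest in replicate 2 labelled RanT27N D0, HSP81-2, HSP81-3, Hsp81.4 and HSFA2 in replicate 1 labelled Col D0, and HSFA3 changes by pair.

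Small HSPs bind unfolding proteins without using ATP and are among the genes most strongly raised by heat. HSP17.6II, a cytosolic class II small HSP, stood at 4.22 and 0.618 CPM in the pair labelled RanG22V D3, 3.61 and 2.11 CPM in RanG22V D0, and 2.47 and 0.393 CPM in RanT27N D3. It stood at 0.508 and 65.3 CPM in the pair labelled RanT27N D0 and at 3.39 and 0 CPM in Col D0. Replicate 2 labelled RanT27N D0 thus lay apart from the 9 others, at 128-fold the CPM of its own partner.

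HSP17.6A is the gene next to HSP17.6II on chromosome 5, and the transcripts are 82.5% identical over 662 bases, so reads between them are uncertain. HSP17.6A had 3.96 and 0.333 CPM in RanG22V D3, 8.58 and 6.13 CPM in RanG22V D0 and 1.38 and 0.0561 CPM in RanT27N D3. It had 0.878 and 41.7 CPM in RanT27N D0 and 1.60 and 0 CPM in Col D0. The high library was again replicate 2 labelled RanT27N D0, and the second highest was replicate 1 labelled RanG22V D0.

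HSP17.4 had 12.1 and 6.95 CPM in RanG22V D3, 32.4 and 15.8 CPM in RanG22V D0 and 5.41 and 6 CPM in RanT27N D3. It had 4.48 and 31.9 CPM in RanT27N D0 and 5.04 and 8.22 CPM in Col D0. Both libraries labelled RanG22V D0 lay above both labelled Col D0, with a log2 fold change of 1.86 ± 0.77 (SE) that missed the threshold (edgeR quasi-likelihood test, adjusted p = 0.112). A long noncoding RNA gene on the other strand, AT3G07365, overlaps 60.4% of HSP17.4 and had 240 counts over the 10 libraries, against 2721 for HSP17.4. Reads of HSP17.4 and of this partner cannot be told apart without the strand setting of the counting, which is not given in the sources used here.

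HSP18.2, a cytosolic class I small HSP, was highest in replicate 1 labelled RanG22V D3, with 6.34 CPM, and at most 1.69 CPM in the other libraries. HSP23.6-MITO of the mitochondria had 4 and 0 counts in RanG22V D3, 32 and 11 in RanG22V D0, 1 and 32 in RanT27N D0, and 0 in the 4 libraries labelled RanT27N D3 and Col D0. HSP21, which guards chloroplast membranes and photosystems in heat, had 7 counts in replicate 1 labelled RanG22V D3, 11 in replicate 2 labelled RanT27N D0, 4 in replicate 2 labelled Col D0 and 0 in the others. ATHSP22.0 had at most 11 counts in any library. HSP1 went against these genes, with its highest level of 21.04 CPM in replicate 2 labelled Col D0 and its lowest, 1.71 CPM, in replicate 2 labelled RanG22V D3. A gene on the other strand, AT4G14840, overlaps 35.3% of HSP1 and had 6.60 and 0.238 CPM in the same libraries. A part of shared reads in the level of HSP1 was not tested. Summed over the 8 small HSPs, replicate 2 labelled RanT27N D0 held 147 CPM and the other libraries held 11.04 to 52.1 CPM.

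HSP70 chaperones fold new and damaged proteins with ATP, with heat-induced and constantly made (HSC70) forms. The row named HSP70 is a heat-induced cytosolic form. It had 327 and 203 CPM in RanG22V D3, 143 and 66.7 CPM in RanG22V D0 and 35.8 and 64.0 CPM in RanT27N D3. It had 14.6 and 280 CPM in RanT27N D0 and 116 and 13.4 CPM in Col D0. Both libraries labelled RanG22V D3 lay above both labelled RanT27N D3 and above both labelled RanG22V D0, while the pairs labelled RanT27N D0 and Col D0 each spanned more than 8-fold.

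Hsp70b, another heat-induced form, had 8.58 and 4.61 CPM in RanG22V D3, 4.02 and 4.02 CPM in RanG22V D0 and 4.39 and 2.69 CPM in RanT27N D3. It had 3.10 and 14.3 CPM in RanT27N D0 and 4.19 and 0.448 CPM in Col D0. The order of the 2 libraries within RanT27N D0 and Col D0 was that of HSP70.

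Hsp70-2, annotated as HSC70-2, had the largest log2 difference of the HSP70s for both D3 vs D0 comparisons. It had 14.6 and 18.8 CPM in RanG22V D3, 72.8 and 97.3 CPM in RanG22V D0, and 55.5 and 41.9 CPM in RanT27N D3. It had 318 and 464 CPM in RanT27N D0 and 342 and 15.05 CPM in Col D0. The D3 pairs lay below the D0 pairs of the same label without overlap. By the headers these comparisons set RanT27N against RanG22V, RanG22V D3 vs RanG22V D0 after darkness and RanT27N D3 vs RanT27N D0 before it. By edgeR, Hsp70-2 gave a log2 fold change of -2.35 ± 1.00 (adjusted p = 0.209) for RanG22V D3 vs RanG22V D0. It gave -3.00 ± 1.03 (adjusted p = 0.384) for RanT27N D3 vs RanT27N D0, and neither was called. DESeq2 called it in RanT27N D3 vs RanT27N D0, and edgeR called both without either library labelled Col D0 (adjusted p = 0.00856 to 0.0146). In RanG22V D0 vs Col D0 the direction hung on 1 library. Hsp70-2 gave -1.07 ± 0.96 on the log2 scale there (edgeR, adjusted p = 0.461), 2.48 without replicate 1 labelled Col D0 (adjusted p = 0.00693) and -2.09 without its replicate 2 (adjusted p = 0.00682). Its transcript is 86.7% identical to that of HSC70-1 over 1976 bases, so reads between them are uncertain.

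Hsp70-15 and HSP91 are neighbouring genes of the Hsp110 branch, which serves HSP70 as exchange factor. HSP91 is annotated as Hsp70-14 and is no HSP90. They are 95.4% identical over 2268 bases, and counts can move between them. HSP91 ranged only from 27.1 to 61.1 CPM and Hsp70-15 from 1.06 to 3.69 CPM, without the peak in replicate 2 labelled RanT27N D0. HSP70T-2, a truncated form, ranged from 2.05 to 11.8 CPM, with its highest level in that library.

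HSP90 dimers hold signalling proteins and HSFs in a ready state. HSP90.1, the heat-induced cytosolic form, had 114 and 34.1 CPM in RanG22V D3, 46.8 and 26.4 CPM in RanG22V D0 and 24.9 and 23.1 CPM in RanT27N D3. It had 39.5 and 510 CPM in RanT27N D0 and 254 and 17.2 CPM in Col D0. The 2 highest libraries therefore sit in different labelled groups, each with a partner more than 12-fold lower. RanT27N D3 vs RanT27N D0 gave a log2 fold change of -3.52 ± 1.34 for HSP90.1 (edgeR, adjusted p = 0.446), and -0.72 without replicate 2 labelled RanT27N D0.

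HSP81-2, HSP81-3 and Hsp81.4 are the constantly made cytosolic HSP90s and sit in 1 cluster on chromosome 5. HSP81-2 had 647 and 547 CPM in RanG22V D3, 451 and 334 CPM in RanG22V D0 and 346 and 423 CPM in RanT27N D3. It had 485 and 1336 CPM in RanT27N D0 and 1643 and 428 CPM in Col D0. HSP81-3 ranged from 223 to 999 CPM and Hsp81.4 from 72.0 to 261 CPM, all 3 with the highest level in replicate 1 labelled Col D0. HSP81-3 is 91.9% identical to HSP81-2 and 91.2% to Hsp81.4, so their split of reads is uncertain. Hsp89.1 of the mitochondria did not follow them. It had 25.9 and 30.6 CPM in RanG22V D3, 11.7 and 12.6 CPM in RanG22V D0, 12.03 and 18.1 CPM in RanT27N D3, 11.5 and 22.3 CPM in RanT27N D0 and 15.07 and 29.6 CPM in Col D0.

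The summed level of the 5 HSP90s was 2777 CPM in replicate 2 labelled RanT27N D0, 3173 CPM in replicate 1 labelled Col D0 and 682 to 1373 CPM in the other 8 libraries.

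HSP101, of the HSP100 family, pulls proteins out of aggregates and is needed for acquired heat tolerance. It had 26.1 and 15.6 CPM in RanG22V D3, 14.8 and 8.09 CPM in RanG22V D0 and 20.3 and 15.0 CPM in RanT27N D3. It had 9.80 and 103 CPM in RanT27N D0 and 53.0 and 9.34 CPM in Col D0, the same 2 libraries being high as for HSP90.1. HSP101 was 2.30 ± 1.01 lower on the log2 scale in RanG22V D0 than in RanT27N D0 without passing the test (edgeR, adjusted p = 0.150), and 0.22 higher without replicate 2 labelled RanT27N D0. HSP93-III, a chloroplast relative, ranged from 10.7 to 26.9 CPM, with 11.8 CPM in replicate 2 labelled RanT27N D0 and 24.8 CPM in replicate 1 labelled Col D0. AT3G48860, a gene on the other strand, overlaps 15% of HSP93-III, and a part of shared reads in this level was not tested.

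HSP60 chaperonins fold proteins inside mitochondria. HSP60 had 41.4 and 29.4 CPM in RanG22V D3, 15.2 and 11.1 CPM in RanG22V D0 and 14.3 and 11.1 CPM in RanT27N D3. It had 14.8 and 36.2 CPM in RanT27N D0 and 18.1 and 15.5 CPM in Col D0. HSP60-2 had 30.1 and 19.98 CPM in RanG22V D3 and 10.5 to 17.26 CPM elsewhere, and HSP60-3A had 13.1 and 17.27 CPM in RanG22V D3 and 7.61 to 17.95 CPM elsewhere. All 3 lay higher in both libraries labelled RanG22V D3 than in the 4 labelled RanG22V D0 or RanT27N D3. HSP60 came closest to a call among the chaperones, with a log2 fold change of 1.48 ± 0.43 (edgeR, adjusted p = 0.0574) in RanG22V D3 vs RanT27N D3 and 1.43 ± 0.43 (adjusted p = 0.0948) in RanG22V D3 vs RanG22V D0. DESeq2 called it in both.

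**Figure D2:**
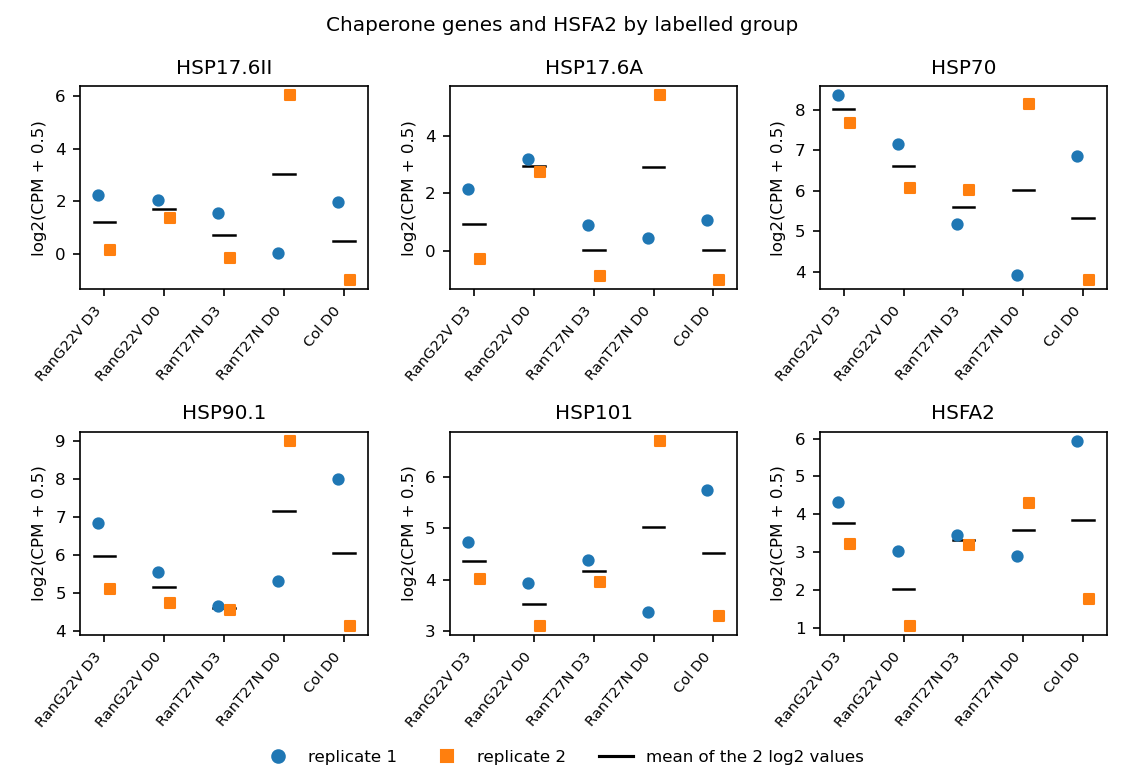
Level of 5 chaperone genes and HSFA2 as log2(CPM + 0.5) in each library, with replicate 1 as circles, replicate 2 as squares and the mean of the pair as a line, by labelled group. Replicate 2 lies far above replicate 1 in RanT27N D0 for the 5 chaperone genes, and replicate 1 above replicate 2 in Col D0, as with 510 against 39.5 CPM and 254 against 17.2 CPM for HSP90.1.

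The spread within pairs was set against that of all 21475 genes tested, as the ratio of the 2 libraries on the scale of CPM + 0.5. In the pair labelled RanT27N D0, 8 of 40 members (20%) differed by more than 4-fold, against 2.93% of all genes, and all 8 were higher in replicate 2. They were 3 small HSPs, 3 HSP70s, HSP90.1 and HSP101, and no HSF. In the pair labelled Col D0, 9 of 40 members (22.5%) differed by more than 4-fold, against 5.54% of all genes, and all 9 were higher in replicate 1. These were 2 small HSPs, 3 HSP70s, HSP90.1, HSP101 and 2 HSFs. The counts were 2 of 40 in RanG22V D3 (1.03% of all genes), 0 of 40 in RanG22V D0 (0.563%) and 2 of 40 in RanT27N D3 (2.73%).

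**Figure D3:**
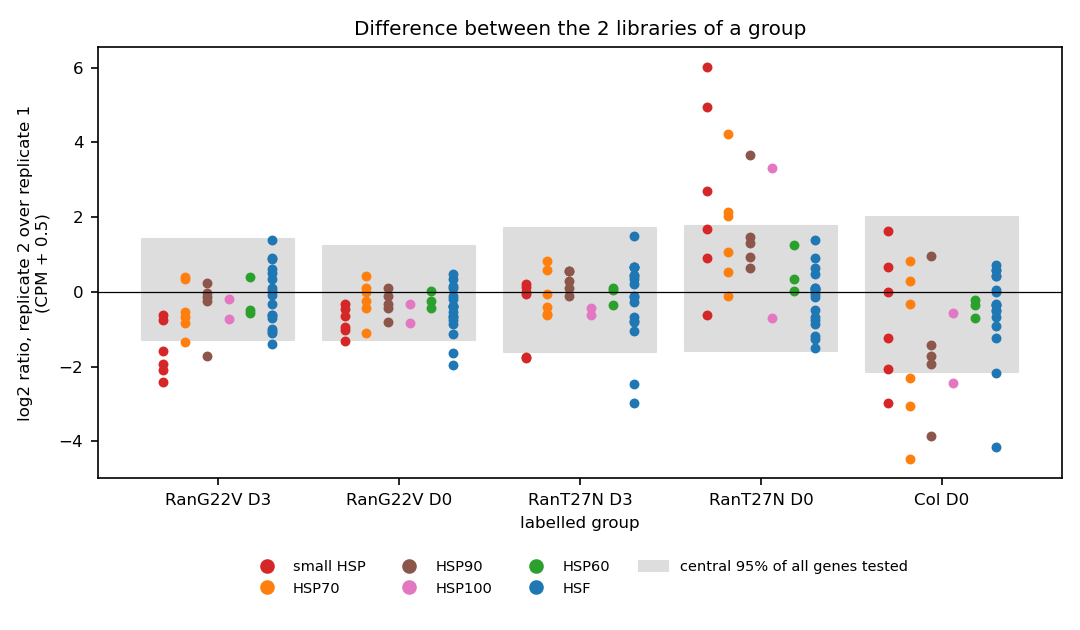
Log2 ratio of replicate 2 over replicate 1 within each labelled pair, on CPM + 0.5, with 1 point per tested HSP or HSF gene coloured by family (HSPRO2 left out) and a grey band for the central 95% of all 21475 genes tested. Of the 19 small HSP, HSP70, HSP90 and HSP100 points, 8 lie above the band in RanT27N D0 and 6 below it in Col D0, and of the 17 HSF points 0 lie outside it in RanT27N D0 and 2 below it in Col D0.

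Over the 10 libraries the log2 levels most like those of HSP101 were those of HSP90.1 (Pearson r = 0.921), AT3G13230 (r = 0.921), the immunophilin co-chaperone ROF1 (r = 0.918) and F1O17.3 (r = 0.909). F1O17.3 is the antisense neighbour that overlaps HSP101, with 35.9% of its counts, so these 2 rows may share reads. HSP90.1 was most like F6F22.19 (r = 0.939), HOP3 (r = 0.936) and HSP81-2 (r = 0.925), and HSP81-2 was most like Hsp81.4 (r = 0.965) and HSP81-3 (r = 0.961). HSFA2 gave r = 0.818 with HSP101 and 0.767 with HSP90.1, and HSFA7A 0.0243 and 0.187. These values describe 10 libraries in 5 pairs, share the libraries' scaling, rest largely on 2 high libraries and carry no test.

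Among the factors, HSFA2 was the one whose pattern was nearest to the chaperones. It had 19.7 and 8.85 CPM in RanG22V D3, 7.62 and 1.58 CPM in RanG22V D0 and 10.5 and 8.64 CPM in RanT27N D3. It had 6.98 and 19.1 CPM in RanT27N D0 and 60.5 and 2.91 CPM in Col D0. Replicate 1 labelled Col D0 was 20.8-fold above its partner, and leaving it out turned the direction of RanG22V D0 vs Col D0. The log2 fold change was -2.78 ± 1.19 (edgeR, adjusted p = 0.123) with it and 0.65 ± 0.93 (adjusted p = 0.662) without it, and neither passed the test.

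The HSFA1 factors are the first switches of the heat response. HSF1 (HSFA1A) ranged from 0.571 to 3.10 CPM, HSF3 (HSFA1B) from 9.90 to 19.99 CPM, HSFA1D from 2.33 to 6.995 CPM and HSFA1E from 0.112 to 2.89 CPM. The extremes of HSFA1E are the 2 libraries labelled RanT27N D3. None was called, and none peaked in replicate 2 labelled RanT27N D0 or replicate 1 labelled Col D0.

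No member was called in RanT27N D3 vs RanT27N D0, where 0.0233% of all genes were called higher and 0.321% lower. At an unadjusted p below 0.05, edgeR gave 2 higher and 5 lower members there, and DESeq2 called 2, Hsp70-2 among them. None was called in RanT27N D0 vs Col D0, where 0.242% of all genes were called higher and 0.00466% lower. Unadjusted, 2 were higher and 1 lower, and DESeq2 called 0. In RanG22V D3 vs RanG22V D0, 0 of 40 members were called higher (1.17% of all genes) and 1 lower (2.77%). In RanG22V D0 vs Col D0, 1 of 40 was called higher (11.1% of all genes) and 3 lower (12.1%). In RanG22V D0 vs RanT27N D0, 1 of 40 was called higher (8.25% of all genes) and 2 lower (9.36%). In RanG22V D3 vs RanT27N D3, 1 of 40 was called higher (3.9% of all genes) and 2 lower (6.92%). The shares called among the members were thus near or below those over all genes. All of these calls were made by 6 HSFs, and those of 5 of them are described here.

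HSFA9 (AT5G54070, chromosome 5), a factor known from seeds, shares reads with a gene on the other strand. It had 57.7 and 37.3 CPM in RanG22V D3, 22.4 and 17.2 CPM in RanG22V D0, 15.5 and 8.92 CPM in RanT27N D3, 18.8 and 11.01 CPM in RanT27N D0 and 10.4 and 14.2 CPM in Col D0. It rose in RanG22V D3 vs RanT27N D3, with a log2 fold change of 1.96 ± 0.41 (edgeR, adjusted p = 0.0189). The call was lost without replicate 2 labelled RanT27N D3 (1.59, adjusted p = 0.106), without replicate 1 labelled RanG22V D3 (1.61, adjusted p = 0.121) and without replicate 2 labelled RanG22V D3 (2.24, adjusted p = 0.0515). The small nucleolar RNA gene U3D lies on the other strand over 303 bases of HSFA9. U3D and HSFA9 had equal counts in 9 of the 10 libraries, with 4068 and 4072 counts in all, although most of the gene lies outside U3D. U3D was called in the same comparison (1.96 ± 0.41, adjusted p = 0.0191). All but 4 of the counts listed for HSFA9 are thus matched by counts of U3D, and the 9 seed markers were at or near 0.

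**Figure D4:**
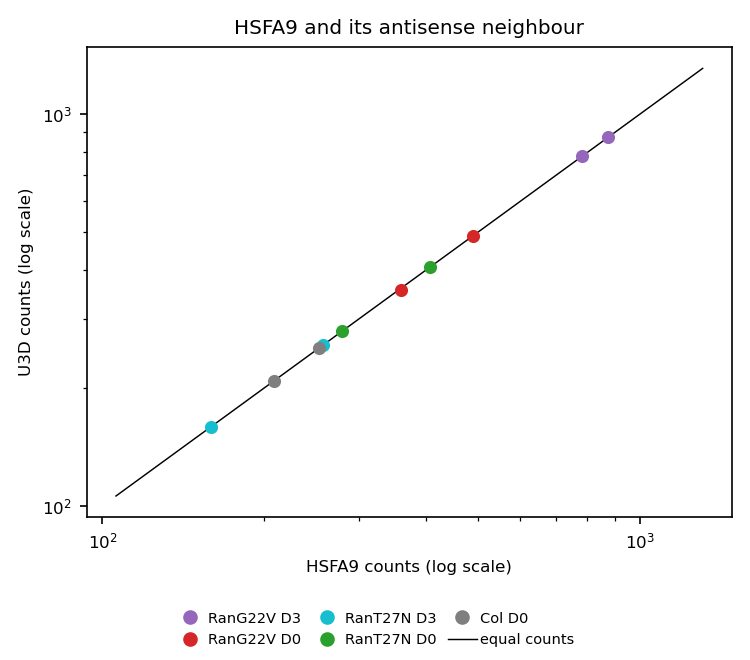
Deposited counts of HSFA9 on the horizontal axis and of U3D, the gene on the opposite strand, on the vertical axis, both on log scales, with 1 point per library coloured by label and a line of equal counts. The points of the 10 libraries lie on the line.

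HSFA3 (AT5G03720, chromosome 5), known to act after DREB2A in heat and drought, had no such copy of its counts. Its overlap with the antisense gene AT5G03710 is 15.3%, and the row of that gene, named F17C15.130, had 140 counts against 795 for HSFA3. In the pair labelled RanG22V D0, however, it had 32 and 48 counts against 61 and 76 for HSFA3. AT5G03710 gave a log2 fold change of -3.83 ± 1.54 in RanG22V D3 vs RanG22V D0 (edgeR, adjusted p = 0.186). A part of shared reads in the level of HSFA3 was not tested. In the pair labelled RanG22V D3, HSFA3 had only 4 and 14 counts. HSFA3 had 0.264 and 0.666 CPM in RanG22V D3, 2.78 and 3.64 CPM in RanG22V D0, 7.16 and 9.76 CPM in RanT27N D3, 4.21 and 1.58 CPM in RanT27N D0 and 5.59 and 5.82 CPM in Col D0. The pair labelled RanG22V D3 was the lowest and that labelled RanT27N D3 the highest. HSFA3 fell in RanG22V D3 vs RanT27N D3, with a log2 fold change of -4.13 ± 0.67 or 17.5-fold (edgeR, adjusted p = 0.00694). Without replicate 1 labelled RanG22V D3 it was -3.66 ± 0.82 (adjusted p = 0.0560). It also fell in RanG22V D3 vs RanG22V D0, with -2.74 ± 0.64 (adjusted p = 0.0494), a call lost without any 1 library of the pairs labelled RanG22V D3, RanG22V D0 or RanT27N D3 (adjusted p = 0.0721 to 0.273) and with a replicate block (adjusted p = 0.0529). DREB2A had 86.3 and 62.7 CPM in RanG22V D3, 82.1 and 14.7 CPM in RanG22V D0, 46.4 and 53.7 CPM in RanT27N D3, 64.3 and 40.9 CPM in RanT27N D0 and 74.9 and 134 CPM in Col D0.

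HSFA8 (AT1G67970, chromosome 1), a class A factor, had 8.58 and 9.23 CPM in RanG22V D3, 9.54 and 6.46 CPM in RanG22V D0, 14.7 and 23.61 CPM in RanT27N D3, 40.3 and 21.9 CPM in RanT27N D0 and 20.95 and 31.8 CPM in Col D0. All 4 libraries labelled RanG22V lay below the 6 others. By the headers those 4 are the darkened libraries of both lines and the 6 others are those of day 0, so line and darkness cannot be told apart in this split. HSFA8 fell in RanG22V D0 vs RanT27N D0, with a log2 fold change of -1.96 ± 0.42 (edgeR, adjusted p = 0.0116), and in RanG22V D0 vs Col D0, with -1.72 ± 0.41 (adjusted p = 0.0159). The first call was lost without replicate 1 labelled RanT27N D0 (-1.48, adjusted p = 0.0638) and without replicate 2 labelled RanG22V D0 (-1.71, adjusted p = 0.100). The second was lost without replicate 2 labelled Col D0 (-1.47, adjusted p = 0.0517), without replicate 1 labelled RanG22V D0 (-2.03, adjusted p = 0.0506) and without replicate 2 labelled RanG22V D0 (-1.47, adjusted p = 0.123).

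HSF A4A (AT4G18880, chromosome 4), a class A factor tied to responses to hydrogen peroxide, had 105 and 68.8 CPM in RanG22V D3, 71.6 and 42.3 CPM in RanG22V D0, 133 and 170 CPM in RanT27N D3, 144 and 89.5 CPM in RanT27N D0 and 181 and 273 CPM in Col D0. Both libraries labelled Col D0 were above the 8 others. It fell in RanG22V D0 vs Col D0, with a log2 fold change of -1.996 ± 0.421 (edgeR, adjusted p = 0.00908), and -1.67 ± 0.54 (adjusted p = 0.0850) without replicate 2 labelled RanG22V D0.

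HSFB2A (AT5G62020, chromosome 5), a class B factor, was the only member called higher in the pair labelled RanG22V D0. It had 42.3 and 40.1 CPM in RanG22V D3, 69.3 and 43.0 CPM in RanG22V D0, 19.5 and 31.1 CPM in RanT27N D3, 20.8 and 21.9 CPM in RanT27N D0 and 23.5 and 18.4 CPM in Col D0. The 4 libraries labelled RanG22V lay above the 6 others, the mirror image of HSFA8 and open to the same reading by the headers. HSFB2A rose in RanG22V D0 vs Col D0, with a log2 fold change of 1.43 ± 0.34 (edgeR, adjusted p = 0.0152), and in RanG22V D0 vs RanT27N D0, with 1.39 ± 0.34 (adjusted p = 0.0206). Against Col D0 the call was lost without replicate 2 labelled Col D0 (1.18) and without replicate 1 labelled RanG22V D0 (1.05). With only the libraries compared, that call was lost too. Against RanT27N D0 it was lost without replicate 1 labelled RanT27N D0 (1.33, adjusted p = 0.112), its replicate 2 (1.43, adjusted p = 0.0770) or replicate 1 labelled RanG22V D0 (1.01, adjusted p = 0.164).

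**Figure D5:**
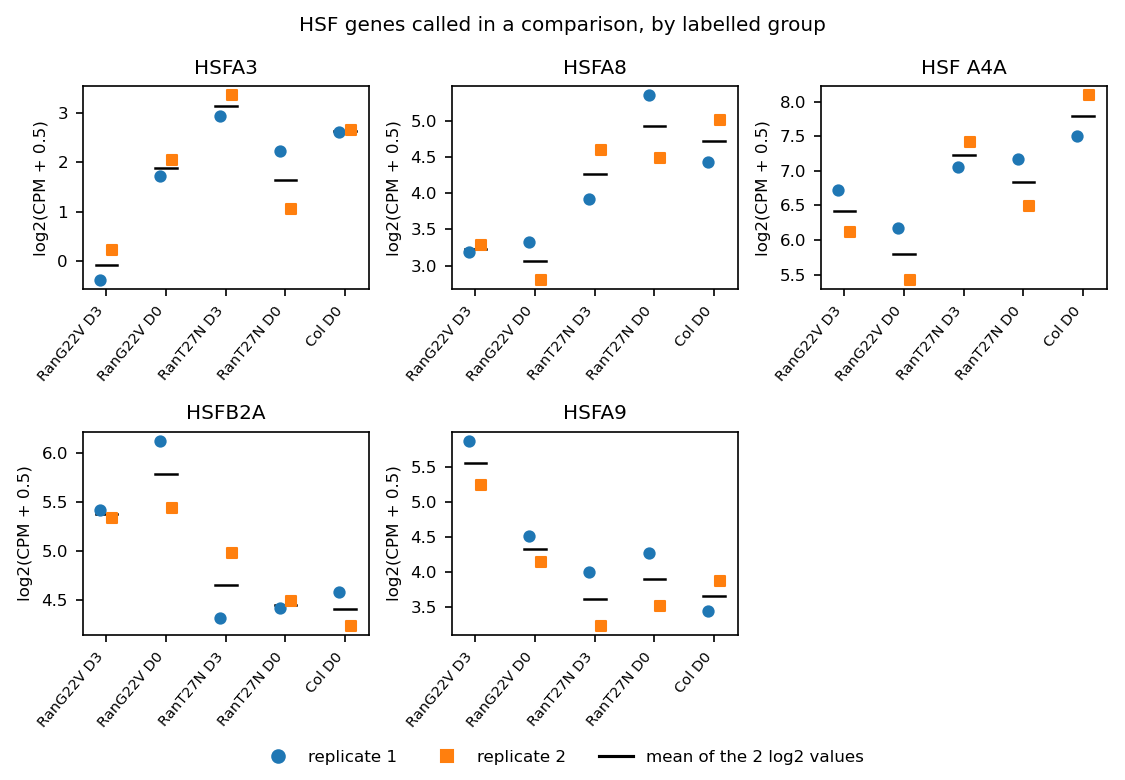
Level of 5 called HSF genes as log2(CPM + 0.5) in each library, with replicate 1 as circles, replicate 2 as squares and the mean of the pair as a line, by labelled group. HSFA8 is low and HSFB2A high in all 4 libraries labelled RanG22V, and HSFA3 is lowest in RanG22V D3 and highest in RanT27N D3.

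The summed level of the green leaf markers was likewise lowest in the 4 libraries labelled RanG22V, and its part in the HSF levels was not tested. Not every marker followed the sum, as LHCB2.1 was highest in replicate 2 labelled RanG22V D3. All comparisons with the same pair share its libraries, so the calls of HSFA8 and HSFB2A against Col D0 and against RanT27N D0 rest on the same pair labelled RanG22V D0.

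HSF4, AT-HSFB2B and HSFA7A were not called in the main fit. Without the filter, edgeR called HSFA7A in RanG22V D0 vs RanT27N D0 and in RanG22V D3 vs RanT27N D3. With only the libraries compared, it called HSFA7A in RanG22V D0 vs RanT27N D0 and HSF4 in RanG22V D3 vs RanG22V D0. Some fits with a library left out called HSFA7A or HSF4 too. Calls of AT-HSFB2B under the alternatives were not recorded. HSF4 (HSFB1), a class B factor that represses heat genes outside of heat, had 46.9 and 48.0 CPM in RanG22V D3, 79.7 and 88.1 CPM in RanG22V D0, 98.1 and 88.4 CPM in RanT27N D3, 203 and 145 CPM in RanT27N D0 and 133 and 55.9 CPM in Col D0. It stood without overlap below RanT27N D0 in the pair labelled RanG22V D0 and below RanT27N D3 in the pair labelled RanG22V D3. Its partner in repression, HSFB2B, is listed as AT-HSFB2B and so is no member. AT-HSFB2B had 16.0 and 14.4 CPM in RanG22V D3, 17.57 and 15.8 CPM in RanG22V D0, 22.6 and 23.9 CPM in RanT27N D3, 24.5 and 9.71 CPM in RanT27N D0 and 30.7 and 22.6 CPM in Col D0. HSFA7A had 11.5 and 9.09 CPM in RanG22V D3, 18.4 and 8.18 CPM in RanG22V D0, 3.43 and 0 CPM in RanT27N D3, 1.66 and 1.74 CPM in RanT27N D0 and 5.24 and 0.783 CPM in Col D0. All 4 libraries labelled RanG22V, darkened by the headers, were above the 6 others, yet RanG22V D0 vs RanT27N D0 missed the threshold (log2 fold change 2.96 ± 1.30, edgeR, adjusted p = 0.149).

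HSFA6A, HSFA6B, HSFB3 and HSFB4 stayed at or below 2.11 CPM in every library. HSFA6A had 32 and 23 counts in the pair labelled RanG22V D3, 0 and 4 in RanG22V D0, 0 and 16 in RanT27N D3, 0 and 11 in RanT27N D0 and 0 and 3 in Col D0. HSFB3 had 0 and 17 counts in RanG22V D3, 28 and 18 in RanG22V D0, 4 and 12 in RanT27N D3, 4 and 3 in RanT27N D0 and 0 in both libraries labelled Col D0. DESeq2 called HSFB3 in RanG22V D0 vs Col D0 (adjusted p = 0.0119), and edgeR did not. HSPRO2, the odd one out by name, ranged from 313 to 1341 CPM, with its pairs overlapping in all 6 pairwise comparisons.

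Whether D3 and D0 differed by other amounts under the 2 line labels was tested as an interaction. No member was called, where 0.0186% of all genes were called higher and 0.191% lower. At an unadjusted p below 0.05, edgeR gave 6 higher and 1 lower members, and DESeq2 called HSP60 and HSFA3. HSP60 had an interaction of 2.44 ± 0.60 on the log2 scale (edgeR, adjusted p = 0.151), HSP90.1 4.53 ± 1.79 (adjusted p = 0.344) and HSFA3 -4.29 ± 0.87 (adjusted p = 0.0979). Over the 15 alternatives the interaction of HSP90.1 ranged from 1.73 to 5.44. The median over the 40 members was 0.97 and that over all genes 0.02. The pair labelled RanT27N D0 enters the median of the members. In that pair 8 of the 40 stood more than 4-fold higher in replicate 2. By the headers the same contrast carries the opposite sign.

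Medians with the pair labelled RanT27N D0 include its replicate 2, where 8 of 40 members stood more than 4-fold above replicate 1. The medians of the members by comparison carry no test. They were 0.40 in RanG22V D3 vs RanG22V D0 (all genes -0.02), -0.38 in RanT27N D3 vs RanT27N D0 (all genes 0.00), 0.22 in RanT27N D0 vs Col D0 (all genes 0.00), -0.17 in RanG22V D0 vs Col D0 (all genes 0.00), -0.63 in RanG22V D0 vs RanT27N D0 (all genes -0.07) and 0.61 in RanG22V D3 vs RanT27N D3 (all genes 0.01). In RanG22V D3 vs RanT27N D3, all 5 HSP90s and all 3 HSP60s were higher without overlap between the pairs, and 17 of 40 members in all, where 29.8% of all genes were. Lower without overlap were 7 of 40 members and 6319 of the 21475 genes tested. Of the HSP90s, HSP81-2, HSP81-3 and Hsp81.4 may share reads.

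Of the 7 HSC70 genes, the constantly made HSP70s and with them Hsp70-2 from above, none was called in the main edgeR fit in any comparison. Of all genes, 0.00466% to 12.1% were called in a given direction of a comparison. DESeq2 called Hsp70-2 in RanT27N D3 vs RanT27N D0. Calls of the other HSC70 genes under DESeq2 and the other alternatives were not recorded. HSC70-1 had 1028 and 1222 CPM in RanG22V D3, 950 and 732 CPM in RanG22V D0, 612 and 595 CPM in RanT27N D3, 674 and 1097 CPM in RanT27N D0 and 1435 and 427 CPM in Col D0. Their summed level was 2542 CPM in replicate 2 labelled RanT27N D0, 2708 CPM in replicate 1 labelled Col D0 and 793 to 1687 CPM in the other libraries, the order seen for the HSP90s.

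Of 24 co-chaperones and other heat response genes, 2 rose and 1 fell in RanG22V D0 vs Col D0, where 11.1% of all genes were called higher and 12.1% lower. GOLS1, a galactinol synthase induced by heat, had 22.4 and 24.5 CPM in RanG22V D0 and 6.09 and 5.203 CPM in Col D0 (log2 fold change 2.05 ± 0.54, edgeR, adjusted p = 0.0232). CHIP, a ubiquitin ligase that binds chaperones, had 23.4 and 22.5 CPM in RanG22V D0 and 9.83 and 6.43 CPM in Col D0 (1.496 ± 0.372, adjusted p = 0.0187). SGT1A, an HSP90 co-chaperone of immune receptors, had 16.2 and 17.5 CPM in RanG22V D0 and 101 and 29.6 CPM in Col D0 (-1.95 ± 0.52, adjusted p = 0.0241). The GOLS1 call was lost without any 1 of these 4 libraries (adjusted p = 0.0631 to 0.0941), and that of CHIP without replicate 2 labelled Col D0 or either labelled RanG22V D0 (adjusted p = 0.0764 to 0.112). SGT1A lost its call without replicate 1 labelled Col D0, where the log2 fold change was -0.83, and without either labelled RanG22V D0. In all, SGT1A stayed called under 11 of the 15 alternatives.

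ROF2, a heat-induced immunophilin that binds HSP90.1 and HSFA2, was the only gene of this list called in RanG22V D0 vs RanT27N D0. In that comparison 8.25% of all genes were called higher and 9.36% lower. ROF2 had 0.365 and 1.34 CPM in RanG22V D0 and 8.55 and 58.8 CPM in RanT27N D0 (-5.30 ± 1.39, edgeR, adjusted p = 0.0286). It had 28.3 and 5.95 CPM in RanG22V D3, 5.66 and 6.90 CPM in RanT27N D3 and 26.99 and 2.57 CPM in Col D0, with the same high libraries within RanT27N D0 and Col D0 as HSP101. Its row is named ATFKBP65. Without replicate 2 labelled RanT27N D0 the log2 fold change was -3.32 ± 1.24 and not called (adjusted p = 0.123), nor was it called without either library labelled RanG22V D0 (adjusted p = 0.0957 and 0.169). In RanG22V D3 vs RanT27N D3, 3.9% of all genes were called higher and 6.92% lower. MBF1C, a co-activator of heat tolerance, rose there (log2 fold change 1.31 ± 0.34, edgeR, adjusted p = 0.0392). It had 146 and 99.0 CPM in RanG22V D3 and 45.8 and 53.2 CPM in RanT27N D3. That call was lost without any 1 library labelled RanG22V D3, RanT27N D3 or RanG22V D0 (adjusted p = 0.0516 to 0.230), with 1.00 on the log2 scale without replicate 1 labelled RanG22V D3. None of the 24 was called in the other comparisons, where 0.00466% to 2.77% of all genes were called in a given direction. Within pairs, 3 of the 24 differed by more than 4-fold in RanT27N D0 (2.93% of all genes) and 3 in Col D0 (5.54%), in both cases HOP3, FES1A and ROF2. HOP3 had 1.25 and 43.8 CPM in RanT27N D0 and 8.63 and 0.504 CPM in Col D0, and FES1A 9.33 and 57.7 CPM in RanT27N D0 and 26.1 and 3.80 CPM in Col D0. HOP1 did not share this split, with 56.1 and 54.97 CPM in RanT27N D0 and 54.7 and 64.2 CPM in Col D0.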

How the data were processed

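RNA of 10 libraries was sequenced after preparation with a Lexogen QuantSeq kit, per the labels. The authors deposited whole-number read counts per gene, 1 file per library. Bowtie2 and edgeR are the tools and TAIR10 the build named by the submitters' processing notes. How reads were counted, with which strand setting, is not given in the sources used here. Row names were paired with loci of TAIR10.1 (32577 of 33028 rows, 98.6%).

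Tests were run with edgeR 4.0.16 (R 4.3.3) on the 21475 genes that passed filterByExpr, after TMM scaling, in a single fit of the 5 labelled groups to all 10 libraries (biological coefficient of variation 45%). A gene is called at an adjusted p below 0.05 by the quasi-likelihood F test, adjusted after Benjamini and Hochberg over all genes tested. The SE is the absolute log2 fold change over the square root of F. CPM use TMM-scaled library sizes without correction for gene length, so genes are not ranked against each other. Counting noise limits low genes, reads carry no molecular identifiers, and the 2 libraries of a pair differed by more than it (chi-square per gene 33.3 to 242), so no library was a copy.

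Named genes are every called member (1 is not reported here, though it stays in the counts), the 3 of highest mean CPM per family, the largest change per family and comparison, and HSFA1 factors, HSFA2, HSFA9, HSFB1, HSFB2A, HSFB2B, HSP101, HSP90.1, HSP70B, HSP21 and HSP17.6II; of other lists, called genes. Further genes, such as HSP18.2, HSFA7A, DREB2A, HOP3 and FES1A, were chosen after their values were seen. Members and lists were chosen with earlier results of these data known. The procedure was tested on simulated data. Alternatives were DESeq2 1.42.0, its size factors, no filter, a replicate block, only the libraries compared, and each library left out.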

Additional observations from a re-analysis of the deposited data

How the results depend on the processing

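The 11 calls of HSF genes kept their direction under all 15 alternatives and stayed called under 8 (HSFA3 in RanG22V D3 vs RanG22V D0) to 15 of them. Members called in RanT27N D3 vs RanT27N D0, RanG22V D3 vs RanG22V D0, RanT27N D0 vs Col D0, RanG22V D0 vs Col D0, RanG22V D0 vs RanT27N D0, RanG22V D3 vs RanT27N D3 and the interaction numbered, in this order, 0, 1, 0, 4, 3, 3 and 0. They were 5, 5, 1, 9, 8, 6 and 3 without the filter, 2, 3, 0, 7, 3, 4 and 2 with DESeq2, 0, 9, 0, 3, 4, 6 and 0 with only the libraries compared, and 0, 1, 0, 4, 3, 3 and 0 with a replicate block. In that block the call in RanG22V D3 vs RanG22V D0 was not HSFA3. Leaving out 1 library each gave 0 to 1, 0 to 2, 0 to 1, 2 to 6, 1 to 5, 0 to 5 and 0.

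All genes called numbered 74, 846, 53, 4980, 3782, 2324 and 45 in the same order. Without the filter they were 563, 2107, 391, 5835, 4925, 3709 and 568, with DESeq2 549, 2471, 383, 6421, 5286, 4053 and 683, and with only the libraries compared 0, 3607, 0, 3597, 4083, 3060 and 109. With the replicate block the interaction had 83. Leaving out 1 library each gave 0 to 180, 27 to 1464, 0 to 46, 2384 to 4899, 1641 to 4658, 486 to 3191 and 1 to 135. The cause of these moves was not tested.

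Among members at an unadjusted p below 0.05, or called under an alternative, the direction turned in 6 results, always on leaving out 1 library. In RanG22V D0 vs Col D0 these were HSFA2 (range -4.32 to 0.65 over the libraries left out) and Hsp70-2 (-2.09 to 2.48), both positive without replicate 1 labelled Col D0. HSP101 (-3.19 to 0.22) and HSP17.6II (-4.54 to 2.47) in RanG22V D0 vs RanT27N D0, and HSP17.6II in RanT27N D3 vs RanT27N D0 (-6.37 to 1.47), turned on dropping replicate 2 labelled RanT27N D0. HSP17.4 in RanG22V D0 vs RanT27N D0 (-0.44 to 2.42) turned without replicate 1 labelled RanT27N D0 and, at -0.20, without replicate 1 labelled RanG22V D0. With 1 library left in a pair, it is assumed to vary like the others. The labels do not say that replicate numbers pair libraries, while the headers call them Set1 and Set2. Differences between replicates correlated between groups with r from -0.0063 to 0.401 over all genes, and with 0.153 to 0.401 among RanT27N D3, RanT27N D0 and Col D0. Whether a set was shared was not tested beyond the replicate block. Size factors of DESeq2 moved no median by 0.1.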
